A study of Mus musculus with 12 samples.

Results

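Bone morphogenetic proteins (BMPs) are secreted growth factors, and 10 genes of their pathway were followed across the 12 samples of this series. They were the ligand genes Bmp2, Bmp4 and Bmp6, the antagonist gene Grem1, the receptor genes Bmpr1a and Bmpr2, the inhibitory SMAD gene Smad6 and the target genes Id1, Id2 and Id3. The set was chosen from the data, because the fall of Bmp4 in A1-treated against untreated mesenchymal stromal cells (MSCs) was among the largest of all genes. For this reason values of the 10 genes in that comparison are given as a description, without p-values, and Bmp4 is given without p-values throughout. All 10 genes were found among the 55487 genes of the count table, and 7 of them were among the 11314 protein-coding genes with enough counts to be tested. Bmp2, Bmp6 and Grem1 were not.

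BMP ligands are dimers that are cut from a precursor and bind a complex of type I and type II receptor serine/threonine kinases. The receptors phosphorylate SMAD1, SMAD5 and SMAD9, which enter the nucleus with SMAD4 and switch on genes such as Id1, Id2, Id3 and Smad6. ID proteins hold E proteins away from DNA and thereby restrain differentiation genes, whereas SMAD6 feeds back on the receptors. In bone marrow stroma the pathway is best known for directing MSCs toward bone, cartilage and fat, and secreted antagonists such as gremlin and noggin limit how far a ligand acts.

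The MSCs were primary, wild-type C57BL/6 cells grown out of the femur marrow of female mice aged 6 to 8 weeks and frozen at passage 9 or 10. Control MSCs were untreated, A1 MSCs received 50 μM A1 for 6 h, and A1 + OVA MSCs received 50 μM A1 with 1 mg/ml ovalbumin (OVA) for 6 h. A1 is cholic acid joined to a nuclear localization peptide of hnRNPA1, and OVA is a model antigen. Each group had 4 samples, and the labels do not say whether these came from separate animals or cultures, so that p-values measure the spread between samples that may be technical. Within each group some samples were closer to each other than to the rest, with values given at the end. There was no group with OVA alone, and the labelled protocol also names insulin, with no dose, at the end of the A1 + OVA medium only, so that an effect of OVA and an effect of insulin cannot be told apart here.

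The samples held from 13702348 to 16881995 gene counts. Among 9 MSC surface markers, Cd44, Itgb1, Pdgfra, Pdgfrb, Vcam1 and Ly6a each reached at least 598 counts in a sample, but Thy1 had at most 17 counts in a sample, Lepr at most 16 and Nt5e at most 14. With A1, Cd44 was at 262% and Itgb1 at 153% of control, whereas Pdgfra was at 50.4%, Vcam1 at 51.7% and Ly6a at 66.4%. The 7 endothelial markers summed to at most 0.993 CPM (counts scaled to library size by TMM) in a sample. The 10 blood and macrophage markers summed to between 10.7 and 16.1 CPM, with Ptprc at no more than 4 counts and Tyrobp at 0. The summed level of 5 adipocyte markers, most of it Lpl, lay between 1798 and 2040 CPM in control, between 635.0 and 666 CPM in A1 and between 716 and 794 CPM in A1 + OVA MSCs. The 5 osteoblast markers, mainly Phex and Dmp1, summed to 2.91 to 4.14 CPM in control, 6.03 to 8.24 CPM in A1 and 5.35 to 6.89 CPM in A1 + OVA MSCs, with Ibsp at 0. Mitochondrially encoded transcripts held 3.35% to 3.65% of the counts in control and 2.77% to 3.29% in treated samples. These levels moved with the groups, and their part in the results for BMP genes was not tested. In bulk samples, fewer cells of a type and less RNA per cell cannot be told apart.

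The 250 bases upstream of the annotated start are shown for Bmp4, the gene on which the set turns, and for Smad6, a target gene of the pathway. Both windows come from the RefSeq promoter table (GRCm38.p6), which held 8 of the 10 genes (all but Bmp2 and Id1), and both are free of annotated exons on their strand. They were searched on both strands for GGCGCC, the core of a BMP-responsive element, for GTCT, the SMAD box, for CANNTG, the E-box bound by the E proteins that ID proteins hold back, and for TGACG, the short form of the cAMP response element. Capitals mark matches to any of these but the SMAD box.
Bmp4, chr14:46390670-46390919, minus strand: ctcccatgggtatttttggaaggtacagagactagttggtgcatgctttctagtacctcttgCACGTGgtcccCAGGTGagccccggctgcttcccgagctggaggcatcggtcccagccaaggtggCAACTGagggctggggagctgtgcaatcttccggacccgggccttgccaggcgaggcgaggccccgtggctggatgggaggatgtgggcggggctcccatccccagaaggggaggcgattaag
Smad6, chr9:64022060-64022309, minus strand: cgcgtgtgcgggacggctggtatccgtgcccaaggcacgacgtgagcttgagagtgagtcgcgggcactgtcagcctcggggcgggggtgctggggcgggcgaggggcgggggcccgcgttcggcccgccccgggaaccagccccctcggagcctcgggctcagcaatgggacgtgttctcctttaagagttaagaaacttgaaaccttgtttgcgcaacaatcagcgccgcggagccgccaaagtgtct
The Bmp4 window held 3 E-boxes and 1 SMAD box, and the Smad6 window held 1 SMAD box and no other of these motifs. The window of Grem1, also free of annotated exons but not shown, held 1 GGCGCC and 4 SMAD boxes. Of 32851 windows of this length in the table, 66.2% held an E-box, 82.9% a SMAD box, 17.8% the short cAMP response element and 9.59% the core of the BMP-responsive element. None of the motifs overlapped within these windows, and a match of letters is not a binding site.

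Of the 3 ligand genes, Bmp4 alone exceeded 4 counts in a sample, and it was low in all treated samples. Bmp4 (ENSMUSG00000021835, chromosome 14 of GRCm38 from 46383520 to 46390669, minus strand) encodes a ligand that acts in bone, fat and blood formation. Its normalized read count was 28, 26.5, 28.2 and 27.5 CPM in the control samples, from 439 to 456 raw counts. It was 4.12, 3.89, 4.66 and 3.85 CPM in the A1 samples, from 51 to 61 raw counts, and 5.44, 5.00, 5.55 and 4.38 CPM in the A1 + OVA samples, from 71 to 84 raw counts. Every treated sample lay far below every control sample, while the ranges of both treatments overlapped. The level with A1 was 15% of that in control MSCs, a log2 fold change of -2.74 that ranked 10 from the lowest among the 11314 tested genes. With A1 + OVA it was 18.4% of control, a log2 fold change of -2.44 that ranked 15 from the lowest. Both comparisons share the 4 control samples. Between the treatments the log2 fold change was 0.30, higher with OVA, and this comparison shares its A1 samples with the choice of the gene. Bmp4 shares 89 exonic bases with Gm15217 on the opposite strand, which the strand-specific counting keeps apart.

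Bmp2 and Bmp6, ligands of the same family, were at or near the floor of detection. Bmp2 (ENSMUSG00000027358), the closest relative of Bmp4, had 0 counts in all 12 samples, and with 3 counts as the floor this allows up to 0.177 to 0.229 CPM in a sample. Bmp6 (ENSMUSG00000039004) had 4, 0, 1 and 1 counts in control, 4, 1, 1 and 1 in A1 and 1, 0, 2 and 0 in A1 + OVA samples. Summed over a group this was 0.0920 CPM in control (exact 95% Poisson interval 0.0338 to 0.200), 0.130 CPM with A1 (0.0523 to 0.268) and 0.0492 CPM with A1 + OVA (0.0101 to 0.144). These intervals cover counting error only, they overlap, and a difference in either gene was not detectable at this depth.

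Grem1 (ENSMUSG00000074934), which encodes the BMP antagonist gremlin 1, was also at the floor. It had 0, 4, 1 and 1 counts in control, 3, 0, 2 and 1 in A1 and 0, 0, 1 and 0 in A1 + OVA samples. The ratio of A1 to control was 1.21, with an exact counting interval from 0.324 to 4.53, and that of A1 + OVA to control 0.178, with an interval from 0.00387 to 1.47. No difference was detectable at this depth.

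**Figure D1:**
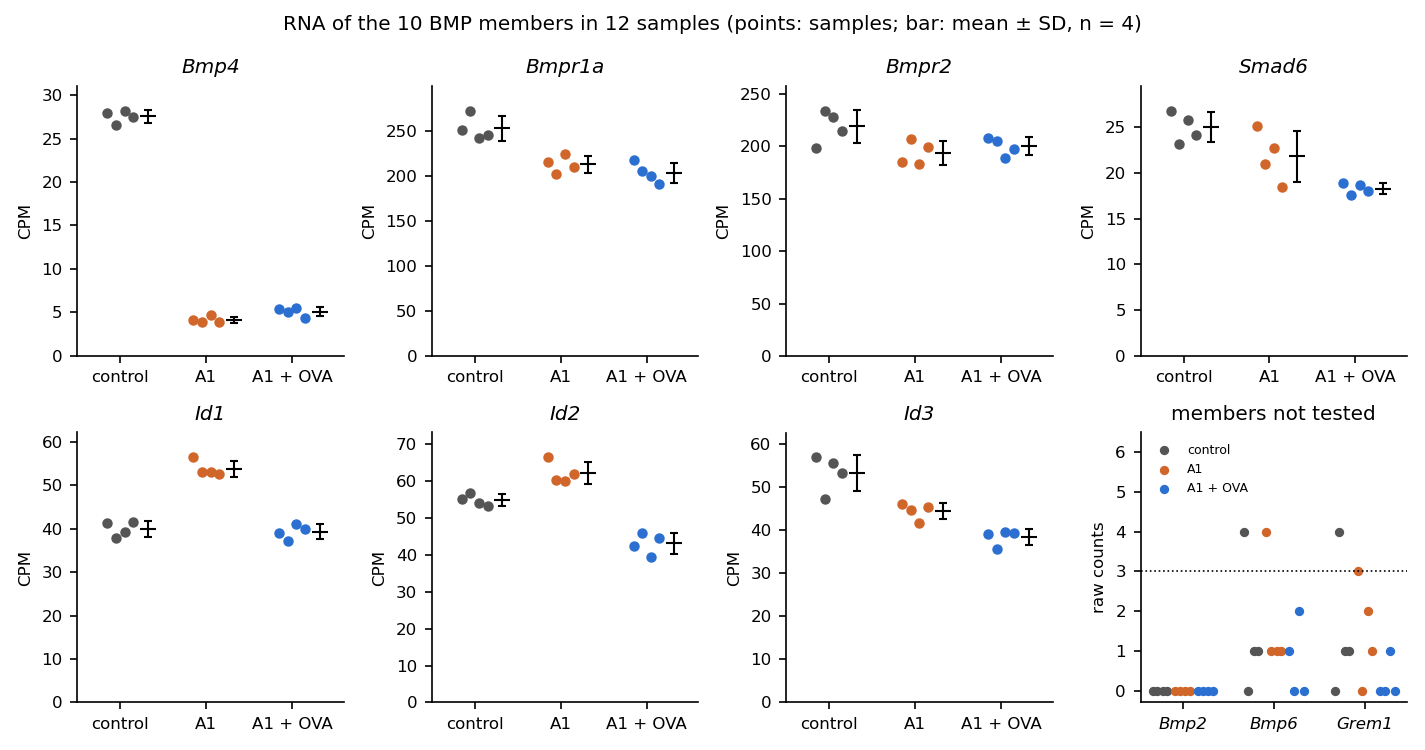
Normalized read counts in CPM (y axis, from 0) of the 7 tested members in the 4 control, 4 A1 and 4 A1 + OVA samples, with the mean and SD beside the points, and raw counts of the 3 members that were not tested (last panel, dotted line at 3 counts). Bmp4 lay at 26.5 to 28.2 CPM in control and at 3.85 to 5.55 CPM in treated samples, whereas Id1 and Id2 were highest with A1 alone.

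Both receptor genes fell slightly with A1 + OVA against control, and their levels in the treated groups were close to each other. Bmpr1a (ENSMUSG00000021796, chromosome 14 from 34410734 to 34503341), which encodes the type I receptor ALK3, had 251, 272, 242 and 245 CPM in control samples. It had 215, 202, 224 and 210 CPM with A1 and 217, 205, 199.8 and 190.2 CPM with A1 + OVA, so that all treated samples were below all control samples by a small margin. With A1 + OVA it fell to 80.4% of control, a log2 fold change of -0.31 (standard error 0.05, edgeR adjusted p = 5.12e-06). Every A1 + OVA sample was below every control sample in 23.96% of all tested genes, and every A1 sample in 26.41%. With A1, Bmpr1a stood at 84.3% of control. Between the treatments its log2 fold change was -0.07 (95% interval -0.17 to 0.03, edgeR adjusted p = 0.364). Bmpr2 (ENSMUSG00000067336, chromosome 1 from 59763400 to 59879014) encodes the type II receptor that is specific to BMPs. Its levels were 199, 234, 228 and 215 CPM in control, 185, 207, 183 and 199 CPM in A1 and 208, 205, 189 and 198 CPM in A1 + OVA samples, and the groups overlapped. It fell to 91.3% of control with A1 + OVA, a log2 fold change of -0.13 (standard error 0.05, edgeR adjusted p = 0.0314). This call was lost without control replicate 2 (edgeR adjusted p = 0.120), without control replicate 3 (0.0958) and without A1 + OVA replicate 3 (0.107) or 4 (0.0664). With A1 the level of Bmpr2 was 88.3% of control, and between the treatments the log2 fold change was 0.05 (95% interval -0.06 to 0.15, edgeR adjusted p = 0.581).

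With A1 alone, Id1 and Id2 lay above and Id3 below the control level. Id1 (ENSMUSG00000042745, chromosome 2 from 152736251 to 152737410) had 41.3, 37.8, 39.2 and 41.6 CPM in control samples and 56.6, 53.1, 53.1 and 52.6 CPM in A1 samples. Id2 (ENSMUSG00000020644, chromosome 12 from 25093799 to 25097140) had 55.1, 56.9, 54.0 and 53.2 CPM in control and 66.5, 60.2, 60.0 and 61.9 CPM in A1 samples. Id3 (ENSMUSG00000007872, chromosome 4 from 136143497 to 136145755) had 57.1, 47.4, 55.7 and 53.3 CPM in control and 46.1, 44.7, 41.8 and 45.4 CPM in A1 samples. Every A1 sample was thus above every control sample in Id1 and Id2 and below every control sample in Id3. Such full separation was common in this comparison, with 27.97% of all tested genes fully above and 26.41% fully below. The levels with A1 were 134.7% of control for Id1, 113.5% for Id2 and 83.4% for Id3, with log2 fold changes of 0.43, 0.18 and -0.26.

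With A1 + OVA the ID genes were at or below the control level. Among all tested genes, 23.96% had every A1 + OVA sample below every control sample. Id1 had 39.1, 37.1, 41.1 and 40.1 CPM, overlapping the control samples, and its log2 fold change was -0.02 (95% interval -0.13 to 0.08, edgeR adjusted p = 0.714). Id2 had 42.5, 46.0, 39.5 and 44.7 CPM, all below the control samples, and fell to 78.8% of control (log2 fold change -0.34, standard error 0.05, edgeR adjusted p = 8.04e-06). Id3 had 39.1, 35.8, 39.7 and 39.4 CPM, again all below the control samples, and fell to 72.2% of control (log2 fold change -0.47, standard error 0.06, edgeR adjusted p = 4.72e-07).

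Compared directly, all 3 ID genes were lower with A1 + OVA than with A1. This comparison shares its A1 samples with that of A1 and control, so the differences are not independent of those above. Id2 fell to 69.4% of its level with A1, a log2 fold change of -0.53 (standard error 0.05, edgeR adjusted p = 1.01e-06), and Id1 to 73.1%, a log2 fold change of -0.45 (standard error 0.05, edgeR adjusted p = 4.32e-06). They ranked 99 and 141 from the lowest among the 11314 tested genes in this comparison. Id3 fell to 86.5%, a log2 fold change of -0.21 (standard error 0.06, edgeR adjusted p = 0.0256). The 4 A1 + OVA samples were below the 4 A1 samples in each of the 3 genes. Of all tested genes, 9.58% were fully below in this comparison. The call for Id3 was lost without A1 replicate 1 (edgeR adjusted p = 0.0678), 2 (0.0516) or 4 (0.0598) and without A1 + OVA replicate 2 (0.0842).

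Smad6 (ENSMUSG00000036867, chromosome 9 from 63953076 to 64022059), the feedback inhibitor, fell with A1 + OVA. It had 26.8, 23.2, 25.8 and 24.1 CPM in control, 25.1, 20.9, 22.7 and 18.4 CPM in A1 and 18.8, 17.5, 18.7 and 18.1 CPM in A1 + OVA samples. The A1 samples spread over the gap between the other groups and overlapped both. With A1 + OVA the level fell to 73.2% of control, a log2 fold change of -0.45 (standard error 0.08, edgeR adjusted p = 4.1e-05), and with A1 it was 87.4% of control (log2 fold change -0.19, or -0.13 without A1 replicate 4). Against A1 the log2 fold change was -0.26 (standard error 0.08, edgeR adjusted p = 0.0422). This last call was lost in 10 of 19 alternatives, where the edgeR adjusted p reached 0.162 without A1 replicate 1.

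**Figure D2:**
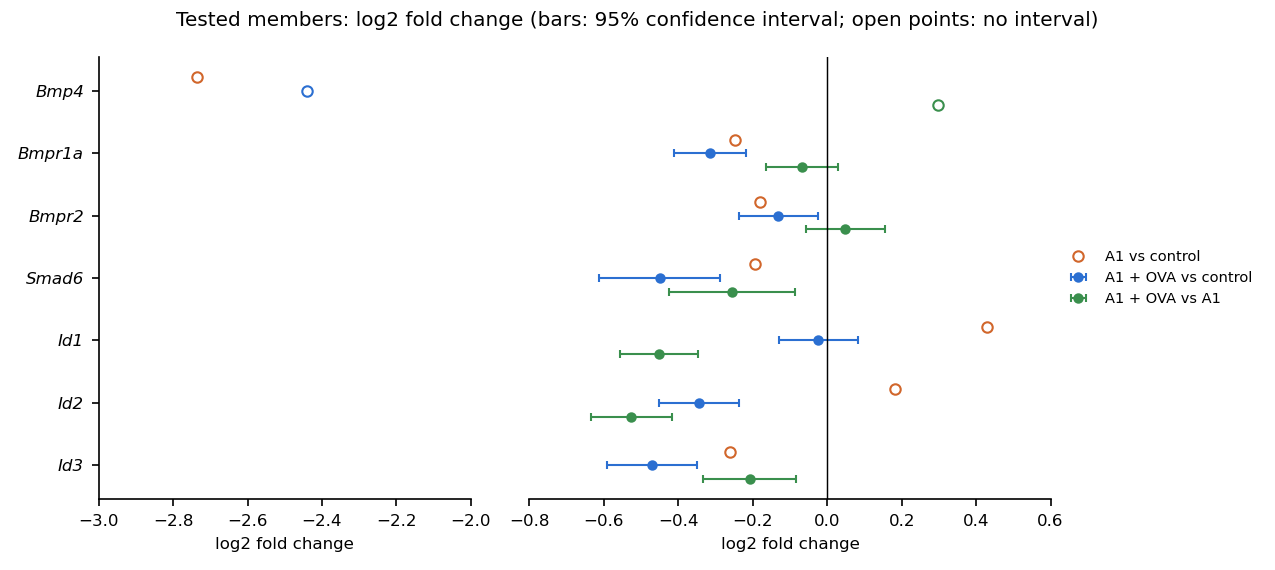
Log2 fold changes (x axis, broken between -2 and -0.8, same scale on both sides) of the 7 tested members in the 3 comparisons, with 95% confidence intervals where a test is given. Open points carry no interval. They are all members with A1, because the fall of Bmp4 in that comparison chose the set, and Bmp4 throughout. Filled points also share control or A1 samples with that comparison. Bmp4 stood alone below -2, and Id1 and Id2 lay on opposite sides of 0 with A1 and in A1 + OVA against A1. These comparisons share the A1 samples, which enter them with opposite sign.

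Counted over the 7 tested members, the log2 fold change with A1 was negative in 5 and positive in 2. That comparison chose the set, so this is a description. Over all tested genes the median log2 fold change was -0.0017 there, so that falls and rises were about equally common. The shares of all tested genes that were called, a stricter count than one of signs, were 31.1% lower and 31.7% higher (edgeR, adjusted p-value under 0.05). Leaving Bmp4 aside, 5 of the other 6 tested members were called lower with A1 + OVA than in control and 0 higher, next to 27.9% lower and 29.7% higher of all tested genes. In A1 + OVA against A1, 4 of these 6 (Id1, Id2, Id3 and Smad6) were called lower and 0 higher, next to 6.81% lower and 6.05% higher of all tested genes. In both comparisons DESeq2 and edgeR at an unadjusted p-value under 0.05 also gave 0 of the 6 as higher. The count of 4 dropped to 2 without A1 replicate 1, without A1 replicate 2 and without A1 + OVA replicate 2, and the lost calls were those of Id3 and Smad6. These are the members with enough counts and not the whole set. Both comparisons with A1 + OVA share a group of samples with the one that chose the set.

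Levels of different genes were compared as CPM per kilobase of the union of their exons. In control MSCs the order was Bmpr1a at 39.7 ± 2.16 (SD, n = 4), Id1 at 34.5 ± 1.56, Id3 at 29.8 ± 2.38, Id2 at 22.5 ± 0.65, Bmp4 at 12.3 ± 0.329, Bmpr2 at 12.2 ± 0.87 and Smad6 at 7.79 ± 0.512 CPM per kilobase. The samples of Bmp4 and Bmpr2 overlapped. This order depended on the length used. Per kilobase of the longest transcript, Id3 at 41.8 stood above Id1 at 34.5, and Bmpr2 at 17 above Bmp4 at 13.4 CPM per kilobase. In A1 MSCs Id1 came first at 46.4 ± 1.58 (SD, n = 4) and Bmp4 last of the tested members at 1.84 ± 0.165 CPM per kilobase of exon union, and both places held with the longest transcript. In A1 + OVA MSCs the samples of Id1 at 33.9 ± 1.48 and Bmpr1a at 32 ± 1.76 CPM per kilobase of exon union (SD, n = 4) overlapped, and Bmp4 was again last at 2.26 ± 0.236.

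A further 64 genes of the pathway were listed by role, and 42 of them had enough counts to be tested. With A1, 10 of these passed the edgeR test as higher and 18 as lower, against the 31.7% and 31.1% of all tested genes given above. With A1 + OVA, 9 were higher and 21 lower, against 29.7% higher and 27.9% lower of all tested genes. The median log2 fold change of the 42 genes was -0.06 with A1 and -0.17 with A1 + OVA, and that of all tested genes was -0.0017 and 0.0036. In A1 + OVA against A1, 1 was higher and 8 were lower, against 6.05% higher and 6.81% lower of all tested genes. The median of the 42 genes was -0.04 there, beside 0.0057 for all tested genes. The 1 higher gene, Smurf2, was lost without A1 replicate 1, 2 or 3 or A1 + OVA replicate 1 or 2, which left 0.

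Among the other ligands, Bmp5 and Gdf7 alone had enough counts. Bmp5 fell from 3.22 ± 0.294 CPM (SD, n = 4) in control to 2.10 ± 0.269 with A1 and 1.54 ± 0.443 with A1 + OVA, log2 fold changes of -0.62 (edgeR adjusted p = 0.00403) and -1.06 (edgeR adjusted p = 3.2e-05). Gdf7, at 3.90 ± 0.364 CPM in control, did not pass the test in either comparison (edgeR adjusted p = 0.121 and 0.421). Bmp7, Bmp3, Gdf2 and Gdf10 had 0 counts in every sample. Of the proteases that cut BMP precursors, Furin had log2 fold changes of 0.08 and 0.05 (edgeR adjusted p = 0.127 and 0.353), and Pcsk6 fell by 0.28 and 0.30 on the log2 scale (edgeR adjusted p = 0.000158 and 5.3e-05). Pcsk5 had 0 counts in every sample.

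Of the 8 tested antagonists, 3 were higher and 3 lower with A1 than in control MSCs, next to the 31.7% and 31.1% of all tested genes. Nbl1, which encodes the antagonist DAN, had 11.7 ± 0.776 CPM in control and 31.0 ± 1.05 CPM with A1 (SD, n = 4 each), rising by a log2 fold change of 1.40 (edgeR adjusted p = 1.29e-13), and to 26.3 ± 1.79 with A1 + OVA. Fstl3, a binder of activins and some BMPs, rose from 27.4 ± 1.83 to 53.0 ± 1.71 and 51.2 ± 1.65 CPM, and Bmper, a modulator of BMP activity, from 8.10 ± 1.42 to 14.4 ± 1.79 and 12.3 ± 0.859 CPM (SD, n = 4 each). Chrd, which encodes chordin, fell from 1.44 ± 0.305 to 0.710 ± 0.201 CPM with A1 (log2 fold change -1.02, edgeR adjusted p = 0.00139), at 6 to 12 raw counts in the A1 samples. Fstl1, by far the most abundant of this group, fell by 0.14 on the log2 scale with A1 (edgeR adjusted p = 0.0019). Noggin (Nog), Chrdl2 and Sostdc1 had 0 counts in all samples. Of the proteases that cut chordin, Tll1 rose from 0.309 ± 0.117 to 1.30 ± 0.105 CPM with A1 (log2 fold change 2.05, edgeR adjusted p = 5.01e-06), while Bmp1, at 262 ± 12.3 CPM in control, had a log2 fold change of 0.06 (edgeR adjusted p = 0.415). Tll1 was near the floor, with 3 to 7 raw counts in control samples.

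**Figure D3:**
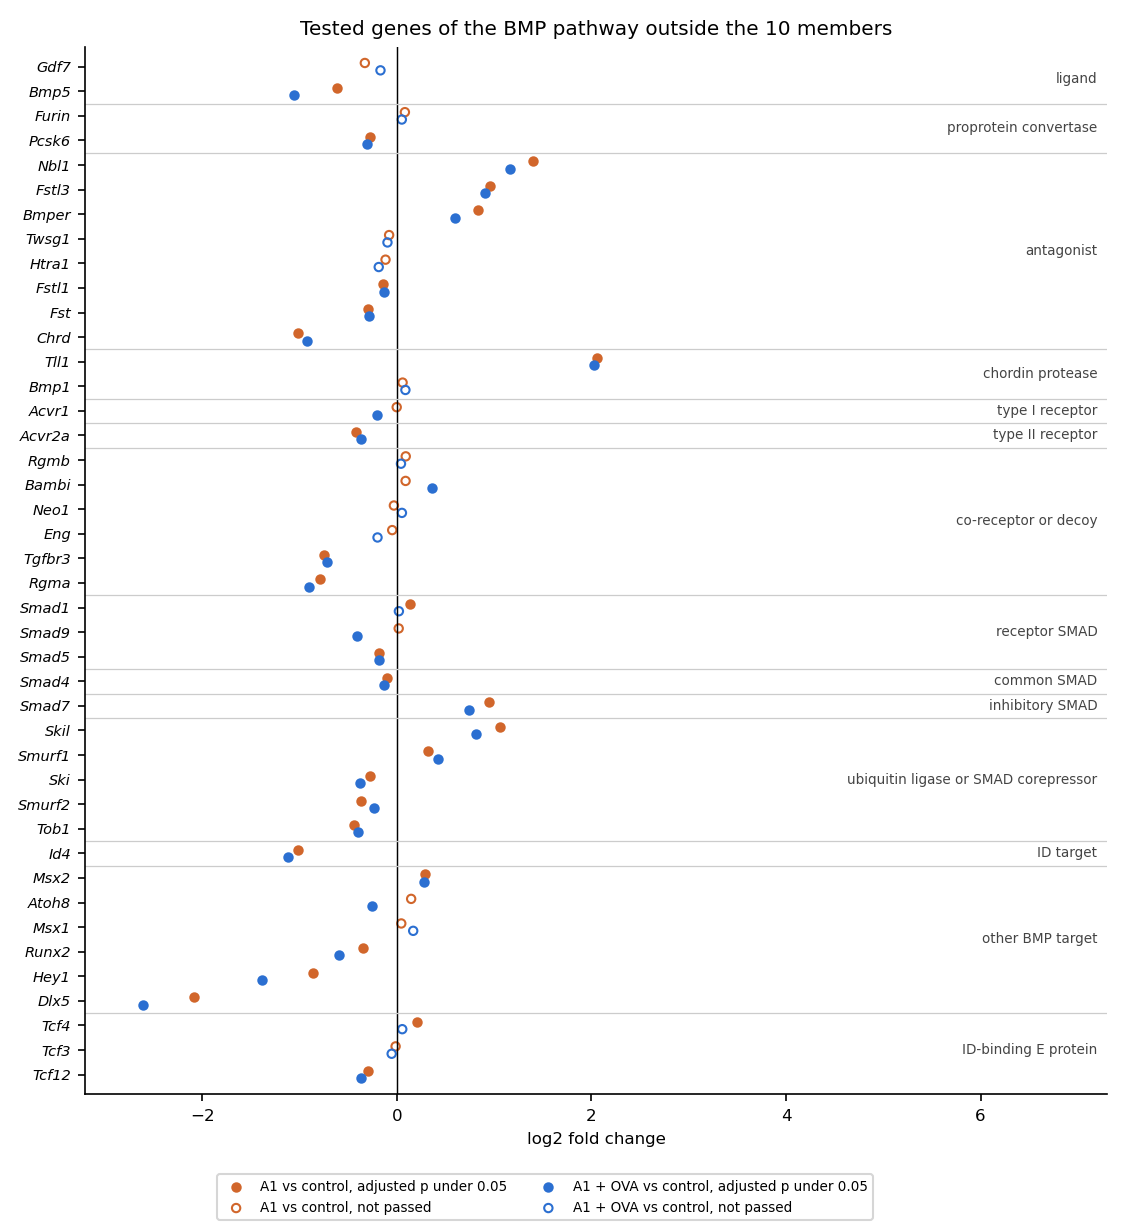
Log2 fold changes (x axis) of the 42 tested genes of the BMP pathway outside the 10 members, by role, with A1 and with A1 + OVA against the same 4 control samples. Filled points passed an adjusted p-value of 0.05 from edgeR. Tll1 lies farthest to the right, with log2 fold changes of 2.05 and 2.03, and Dlx5 farthest to the left, with -2.08 and -2.61. Both rest on few raw counts, 3 to 7 in control samples for Tll1 and 4 to 9 in treated samples for Dlx5.

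Among the other receptors, Acvr1, a type I receptor, was at 94.0 ± 3.25 CPM in control, 94.0 ± 3.91 with A1 and 81.7 ± 0.994 with A1 + OVA (SD, n = 4 each). It fell with A1 + OVA against control (log2 fold change -0.20, edgeR adjusted p = 0.000193) and against A1 (log2 fold change -0.20, edgeR adjusted p = 0.00232). Acvr2a, a type II receptor shared with activins, fell by 0.42 with A1 and by 0.37 with A1 + OVA on the log2 scale (edgeR adjusted p = 6.28e-07 and 3.67e-06). The co-receptor genes Rgma and Tgfbr3 fell by 0.79 and 0.75 with A1 on the log2 scale (edgeR adjusted p = 4.6e-07 and 1.65e-12), whereas Neo1, which encodes neogenin, had a log2 fold change of -0.03 (edgeR adjusted p = 0.510).

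Of the 5 SMAD genes outside the members, Smad7 had the largest fold change. Smad1 had log2 fold changes of 0.13 with A1 and 0.02 with A1 + OVA (edgeR adjusted p = 0.0185 and 0.714), and Smad5 of -0.19 and -0.18 (edgeR adjusted p = 0.000206 and 0.000293). Smad9 had 42.4 ± 2.25 and 43 ± 0.953 CPM and fell to 32 ± 2.81 CPM with A1 + OVA (SD, n = 4 each), which against A1 is a log2 fold change of -0.43 (edgeR adjusted p = 7.37e-05). Smad4, the common partner, had log2 fold changes of -0.10 and -0.13 against control (edgeR adjusted p = 0.0443 and 0.00919). The A1 calls of Smad1 and Smad4 were lost with DESeq2 (adjusted p = 0.0554 and 0.0589) and with no filter on low counts. That of Smad1 was also lost with upper-quartile normalization and without control replicate 3, and that of Smad4 in a fit of only the groups compared and in 6 fits that left out a sample. Smad7, the second inhibitory SMAD gene and a target of TGF-β as well, rose with A1 from 26.4 ± 1.07 to 51.1 ± 0.313 CPM (SD, n = 4 each), its log2 fold change being 0.95 (edgeR adjusted p = 1.42e-12), and to 44.1 ± 2.78 CPM with A1 + OVA. Smad6 and Smad7 thus lay on opposite sides of the control level in A1 + OVA MSCs. Skil, a SMAD corepressor gene that TGF-β signaling also induces, rose with A1 by a log2 fold change of 1.06 (edgeR adjusted p = 2.62e-14). The ubiquitin ligase genes went opposite ways with A1. Smurf2 fell by 0.37 on the log2 scale (edgeR adjusted p = 3.74e-08), whereas Smurf1 rose by 0.32 (edgeR adjusted p = 9.48e-07).

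Of the 7 tested targets outside the members, 4 fell and 1 rose with A1, and 5 fell and 1 rose with A1 + OVA. Of all tested genes, 31.1% were lower and 31.7% higher with A1, and 27.9% and 29.7% with A1 + OVA. The target that rose was Msx2, from 21.8 ± 1.05 CPM in control to 26.7 ± 1.25 with A1 and 26.4 ± 0.723 with A1 + OVA (SD, n = 4 each). Its log2 fold changes were 0.29 and 0.28 (edgeR adjusted p = 0.000213 and 0.000293). Id4, the remaining ID gene, fell from 8.41 ± 1.01 to 4.15 ± 0.266 CPM with A1 and 3.87 ± 0.366 CPM with A1 + OVA (SD, n = 4 each), log2 fold changes of -1.02 and -1.12 (edgeR adjusted p = 1.12e-07 and 2.39e-08). Between the treatments its log2 fold change was -0.10 (95% interval -0.38 to 0.18, edgeR adjusted p = 0.659). Dlx5, a homeobox gene of bone formation, fell from 2.15 ± 0.168 to 0.499 ± 0.139 and 0.343 ± 0.0485 CPM (log2 fold changes -2.08 and -2.61, edgeR adjusted p = 6.63e-08 and 4.59e-09). Its treated samples were near the floor, with 5 to 9 raw counts with A1 and 4 to 6 with A1 + OVA. Runx2, the master regulator of osteoblasts, fell by 0.35 with A1 and by 0.59 with A1 + OVA on the log2 scale (edgeR adjusted p = 6.12e-07 and 1.92e-10), and by 0.24 between the treatments (edgeR adjusted p = 0.00119). Hey1 fell by 0.86 and 1.38 on the log2 scale, from at most 31 counts in a sample (edgeR adjusted p = 0.0185 and 0.000923). Its call with A1 was lost in 4 of the fits that left out a sample. Among the 3 E protein genes, Tcf3 had log2 fold changes of -0.01 and -0.05 (edgeR adjusted p = 0.835 and 0.344). Tcf12 fell by 0.29 and 0.37 on the log2 scale (edgeR adjusted p = 3.24e-06 and 1.47e-07), and Tcf4 rose with A1 by a log2 fold change of 0.21 (edgeR adjusted p = 0.000652) and had one of 0.06 with A1 + OVA (edgeR adjusted p = 0.323).

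**Figure D4:**
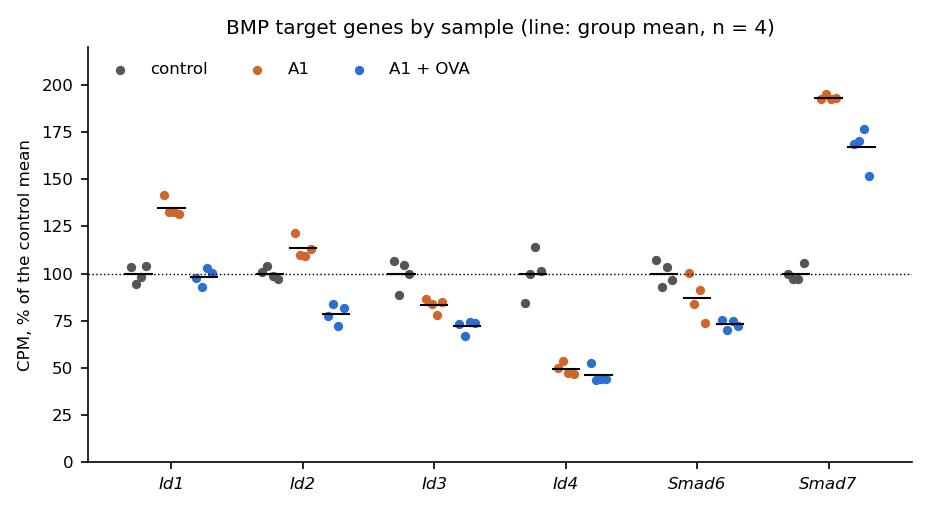
Levels of 4 ID genes and both inhibitory SMAD genes in each sample, as a percentage of the mean CPM of the 4 control samples (y axis, from 0, dotted line at 100%), with a line at each group mean. In mean CPM, Id1 was at 134.6% with A1 and 98.4% with A1 + OVA, Id4 49.3% and 46.1%, and Smad7 193% and 167%.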

How the data were processed

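RNA was sequenced from 12 MSC samples in 3 groups of 4, assigned by the sample titles that the column names repeat. Per the labels and the methods of the study, the authors prepared stranded poly(A) libraries, aligned them to GRCm38 with STAR, counted reads per gene with featureCounts and deposited raw counts, without normalization. Totals between 13702348 and 16881995 counts limit the precision of genes near the floor of 3 counts. Gene names and coordinates came from GENCODE M21, which holds 99.5% of the identifiers. Its release is earlier than the authors' annotation.

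Protein-coding genes kept by filterByExpr were normalized by TMM and tested in 1 fit of all samples with the quasi-likelihood test of edgeR 4.0.16 in R 4.3.3, with Benjamini-Hochberg adjustment over 11314 genes. DESeq2 1.42.0, the tool of the study, was an alternative, as were upper-quartile normalization, 2 other filters, all genes, only the groups compared, the replicate number as a block, a log2 fold change of at least 0.5, and each sample left out. The tests were first checked on simulated counts. CPM were scaled by TMM and divided by the exon union for levels per length.

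The members and lists were chosen with earlier results of these data known. Beside the members, genes were named if they passed against control with a log2 fold change of 0.5 or more in size, were receptors or SMADs, or had the highest level of their role. A listed gene is not reported here. Listed genes with 0 counts in every sample were named as well, and Pcsk6, Smurf1, Msx2, Tcf4 and Tcf12 were named after their values were seen. Fold changes of Pcsk6, Smurf1, Msx2, Tcf4 and Tcf12 were not tried one by one under the alternatives.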

Additional observations from a re-analysis of the deposited data

Results flagged for a closer look

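In 37 genes and 3 groups of 4 samples each, 111 groups were examined for a sample that stood apart from the other 3, and chance alone marks about 1 in 20 groups. There were 6 such samples. Bmp6 had 0.289 CPM in A1 replicate 1 (4 counts, the others 1 each) and Grem1 had 0.0660 CPM in A1 + OVA replicate 3 (1 count, the others 0), both of them differences of a few counts. Id1 was at 56.6 CPM in A1 replicate 1, above the other 3 A1 samples at 52.6 to 53.1 CPM and farther from the control samples. Id3 was at 35.8 CPM in A1 + OVA replicate 2, below the other 3 at 39.1 to 39.7 CPM, and without this sample the difference from A1 did not pass the test (edgeR adjusted p = 0.0842). Chrd was at 1.89 CPM in control replicate 2, above the other controls at up to 1.32 CPM, and Id4 at 4.42 CPM in A1 + OVA replicate 1, above the others at up to 3.70 CPM.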

How the results depend on the processing

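Over 21 log2 fold changes of members and 399 alternative values, 377 kept their side of the threshold, and 22 of those that had passed no longer did. Of called values 0 changed sign, and 1 value that was not called did. These member values include Bmp4 and the comparison that chose the set, and for those they are a description only. Over 81 log2 fold changes of the other named pathway genes and 1525 values the counts were 1501, 23 and 0, and 1 value newly passed. Here 30 values that were not called changed sign. When a log2 fold change of 0.5 or more in size was also required, the members higher and lower, Bmp4 included, were 0 and 1 with A1 and 1 was lower with A1 + OVA against control and 1 against A1. The other pathway genes were then 6 higher and 7 lower with A1 and 6 higher and 8 lower with A1 + OVA, and 0 were higher and 0 lower in A1 + OVA against A1. The share of all tested genes that met both requirements is not given, so nothing is read from these counts. With each sample left out, the members lower in A1 + OVA against A1 ranged from 2 to 4 and the other genes higher from 0 to 1. The replicate block changed none of 114 results by the rule used, under which a count of genes could differ somewhat and still rank as unchanged. The members lower, Bmp4 included, stayed 5 with A1, 6 with A1 + OVA and 4 between the treatments. In the fit without the block, 31.1%, 27.9% and 6.81% of all tested genes were called lower in these comparisons. The count with A1, and the part of Bmp4 in any count, are a description, because the fall of Bmp4 with A1 chose the set. Samples with the same number had correlations of their deviations from -0.13 to 0.16 over 12 pairs (mean 0.02), and 4 of 12 samples correlated best with their own number. Within a group, samples were not equally far apart. The chi-squared per gene, which grows with differences beyond counting error, was 2.88 for A1 replicates 1 and 3 and 3.41 for 2 and 4. The other A1 pairs had 6.79 to 9.00. With A1 + OVA it was 2.50 for replicates 1 and 2, 3.96 for 3 and 4 and 5.43 to 8.72 otherwise. Control pairs had 2.18 (replicates 3 and 4) to 6.90. The main fit took the 4 samples of a group as separate. Taking the longest transcript as the length raised levels by up to 1.66 times. Genes under about 3 counts a sample, Bmp2, Bmp6 and Grem1 among them, are limited by depth.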
